A study of Mus musculus with 10 samples.

Results

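The genes described here are 10 genes of antigen presentation by MHC molecules, taken by symbol from an RNAseq matrix of 23230 features and followed through all 10 libraries. They are 5 class I genes (*H2-K1*, *H2-D1*, *B2m*, *Tap1* and *Tap2*), 4 class II genes (*Cd74*, *H2-Aa*, *H2-Ab1* and *H2-Eb1*) and the class II regulator *Ciita*. The first group, AstroEGFR, was 3 cultures of cortical astrocytes from C57BL/6 pups at P5 that lack Ink4a/Arf (p16/p19 KO) and carry human EGFRvIII, an active mutant of the EGF receptor, from a retrovirus. The PT group was 4 cultures of glioma propagating cells, grown from tumours that such astrocytes formed in CD1 Nude mice. The AstroEGFR_Zfp423 group was 3 cultures of the same astrocytes with an added vector overexpressing *Zfp423*, a zinc finger transcription factor. Each culture gave 1 library, and all cultures were under passage 10. All groups therefore shared the Ink4a/Arf deletion and the EGFRvIII vector. The tumours behind PT1 and PT4 arose from astrocyte batch 1, that of PT2 from batch 2, and that of PT3 from batch 3. Serum was present in the AstroEGFR cultures and absent from those of PT, which received growth factors instead, so culture conditions and passage through a tumour cannot be told apart. The hosts were nude mice, which lack a normal T cell compartment but keep innate immune cells.

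MHC class I molecules show peptides from inside the cell to CD8 T cells and to natural killer cells. A class I molecule is a heavy chain (H2-K1 and H2-D1 are the classical ones of this strain) bound to the light chain B2m, and the Tap1 and Tap2 proteins form the pump that brings peptides into the endoplasmic reticulum for loading. MHC class II molecules show peptides taken up from outside to CD4 T cells. They consist of an alpha chain (H2-Aa) and a beta chain (H2-Ab1, or H2-Eb1 for the E molecule), and the invariant chain Cd74 guards the groove on the way to the endosome. C57BL/6 mice make no E molecule, because their E alpha gene is defective. Most cells express class I genes, with low levels in resting neural cells, whereas class II genes are typical of professional antigen-presenting cells such as microglia, macrophages, dendritic cells and B cells. Interferon gamma can switch on both classes, class II through Ciita and class I partly through its relative Nlrc5.

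The promoters of class I and class II genes share a block of short elements, and it is shown here because it is what the class I and class II genes have in common at the DNA level. In this block an X2 element (core letters TGACG) is followed at a near-fixed distance by a Y box, read here as ATTGG, the reverse of CCAAT. RefSeq promoter windows on GRCm38.p6, from 250 bases before to 50 after the annotated start, were used for 6 of the 10 genes. These were *H2-K1*, *H2-D1*, *B2m*, *Tap1*, *H2-Aa* and *H2-Eb1*, and windows of the remaining genes were not examined. The deposited values were made on mm9, so these positions belong to GRCm38.p6 only. Capitals mark the X2 letters and the Y box. In the first 3 stretches they also mark a match to the IRF-like letters AANNGAAA on either strand, and in *H2-K1* and *H2-D1* one to the NF-kB-like letters GGGNNTTCC. The stretches lie at chr17:34000353-34000464 on the minus strand (*H2-K1*), chr17:35262917-35263028 on the plus strand (*H2-D1*), chr2:122147544-122147644 on the plus strand (*B2m*), chr17:34287861-34287903 on the minus strand (*H2-Aa*) and chr17:34305772-34305818 on the plus strand (*H2-Eb1*). All 5 lie just upstream of the RefSeq start of their gene.
H2-K1: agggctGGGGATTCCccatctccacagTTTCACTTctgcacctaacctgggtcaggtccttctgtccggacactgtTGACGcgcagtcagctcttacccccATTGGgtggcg
H2-D1: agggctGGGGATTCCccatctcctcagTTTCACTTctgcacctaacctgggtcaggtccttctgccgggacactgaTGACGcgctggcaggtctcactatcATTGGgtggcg
B2m: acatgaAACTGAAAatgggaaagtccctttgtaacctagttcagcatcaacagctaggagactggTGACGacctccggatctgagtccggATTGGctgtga
H2-Aa: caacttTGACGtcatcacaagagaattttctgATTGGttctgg
H2-Eb1: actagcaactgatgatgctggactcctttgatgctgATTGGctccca

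The X2 letters followed by the Y box with 15 to 25 bases between them stood in 4 of the 6 windows. The gap was 20 bases in *H2-K1*, *H2-D1* and *B2m* and 21 in *H2-Aa*. Of all 32851 promoter windows of the same length, 0.435% held this pair on either strand. The window of *H2-Eb1* held the Y box but not the letters TGACG, and that of *Tap1* held both letters without this spacing. Single elements were common, with TGACG in 20.8% of all windows, CCAAT in 37.4%, AANNGAAA in 23.9% and GGGNNTTCC in 5.82%, each on either strand. The *H2-K1* and *H2-D1* windows were 90.7% identical over 227 aligned bases. These matches describe letters and show no binding.

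*H2-K1* and *H2-D1* are also close paralogs as transcripts. Their longest protein-coding GENCODE M21 transcripts were 90.3% identical over 1475 aligned bases, and 6.94% of the 50-base stretches of *H2-K1* occurred unchanged in *H2-D1*. The reads of the 2 genes could thus be partly exchanged in counting, and their sum is given beside their separate values. On GRCm38 the genes *H2-K1*, *H2-D1*, *Tap1*, *Tap2*, *H2-Aa*, *H2-Ab1* and *H2-Eb1* lie in the MHC on chromosome 17, *B2m* on chromosome 2, *Ciita* on chromosome 16 and *Cd74* on chromosome 18.

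Levels are FPKM, fragments scaled to transcript length and library size, which are per length and can be compared between genes. The number of fragments behind each value is unknown. *Zfp423* was listed at 3.25 to 4.30 FPKM in AstroEGFR, 0.641 to 2.78 in PT and 9.73 to 105 in AstroEGFR_Zfp423, so that every library with the vector lay above AstroEGFR. *Cdkn2a*, the Ink4a/Arf gene, was still listed at 3.96 to 130 FPKM, with the top value in PT3, and gene-level FPKM do not show which exons were read. Small non-coding RNA and histone features held 0.801% to 6.12% of the FPKM sum in 5 libraries (batches 1 and 3 of AstroEGFR and PT) and 29.7% to 54.8% in the other 5. Between 6200 and 9155 features were listed at 0, most of them in PT3 and next in AstroEGFR_3 (8417). *Gapdh*, which every cell uses, was listed at 0.0106 to 50.1 FPKM, so a value near 0 is given as listed and not as absence. Astrocyte markers (8 genes) summed to 352 to 1048 FPKM in AstroEGFR and PT. They summed to 199 in AstroEGFR_1_Zfp423, 59.4 in AstroEGFR_2_Zfp423 and 904 in AstroEGFR_3_Zfp423.

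Class I genes were expressed in every library, and their levels differed more among the PT libraries than between PT and AstroEGFR. *B2m* was the most abundant of the 10 genes in each library, the heavy chains followed, and the transporter genes were lower. PT2 and PT3 had the highest mean of the 5 class I genes and PT1 and PT4 the lowest of all 10 libraries. The same 2 libraries, PT1 and PT4, came from 1 astrocyte batch. No class I gene passed the test in PT or with *Zfp423*.

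*H2-K1*, a classical heavy chain, was listed at 27.6, 35.9 and 60.0 FPKM in AstroEGFR_1 to AstroEGFR_3. In PT1 to PT4 it stood at 18.0, 170, 453 and 17.5 FPKM. In AstroEGFR_1_Zfp423 to AstroEGFR_3_Zfp423 it stood at 39.1, 95.5 and 42.9 FPKM. PT2 and PT3 lay above and PT1 and PT4 below all 3 AstroEGFR libraries, so the PT group enclosed the AstroEGFR range. The highest PT value was 25.9 times the lowest. On the log2(FPKM + 1) scale AstroEGFR had a mean of 5.32 ± 0.56 (SD, n = 3) and PT one of 6.17 ± 2.32 (SD, n = 4).

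*H2-D1*, the other classical heavy chain, was listed at 24.1, 39.3 and 30.1 FPKM in AstroEGFR. PT1 to PT4 had 6.87, 121, 380 and 8.21 FPKM. It had the widest spread among PT of the 5 class I genes, 55.3 times from lowest to highest. With *Zfp423* it stood at 55.3, 141 and 13.3 FPKM in batches 1 to 3, the first pair above and the last below every AstroEGFR library. The ratio of *H2-K1* to *H2-D1* ran from 0.675 in AstroEGFR_2_Zfp423 to 3.22 in AstroEGFR_3_Zfp423. Their sum, which depends less on how reads were divided between them, was 51.6 to 90.1 FPKM in AstroEGFR. It was 24.9, 291, 833 and 25.7 FPKM in PT1 to PT4, and thus showed the same division of the PT libraries as each gene alone.

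*B2m*, the light chain that every class I molecule needs, was listed at 330, 477 and 666 FPKM in AstroEGFR. It was listed at 179, 813, 2717 and 136 FPKM in the PT libraries 1 to 4, and at 740, 944 and 433 FPKM with *Zfp423*. PT1 and PT4 again lay below and PT2 and PT3 above the AstroEGFR range. *B2m* exceeded the sum of *H2-K1* and *H2-D1* in each library, by 2.80 to 7.84 times. The ratio was lowest in PT2 (2.80), PT3 (3.26) and AstroEGFR_2_Zfp423 (3.98), the 3 libraries with the highest class I mean, so that heavy chains were higher there relative to *B2m* as well.

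*Tap1*, a subunit of the peptide pump, was listed at 2.64, 10.98 and 3.37 FPKM in AstroEGFR. It was listed at 1.67, 15.03, 26.2 and 3.72 FPKM in the PT libraries 1 to 4, and at 4.07, 7.54 and 2.97 FPKM with *Zfp423*. AstroEGFR_2 lay above PT1 and PT4, and the groups overlapped. *Tap2*, the partner subunit, varied least of the 5 genes. It was listed at 7.56, 14.0 and 14.4 FPKM in AstroEGFR, at 3.36, 11.4, 16.0 and 6.10 FPKM in the PT libraries 1 to 4, and at 8.26, 13.9 and 11.98 FPKM with *Zfp423*. Its highest PT value was 4.77 times the lowest, against 15.7 times for *Tap1*, so the subunits of 1 pump did not keep a fixed ratio.

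**Figure D1:**
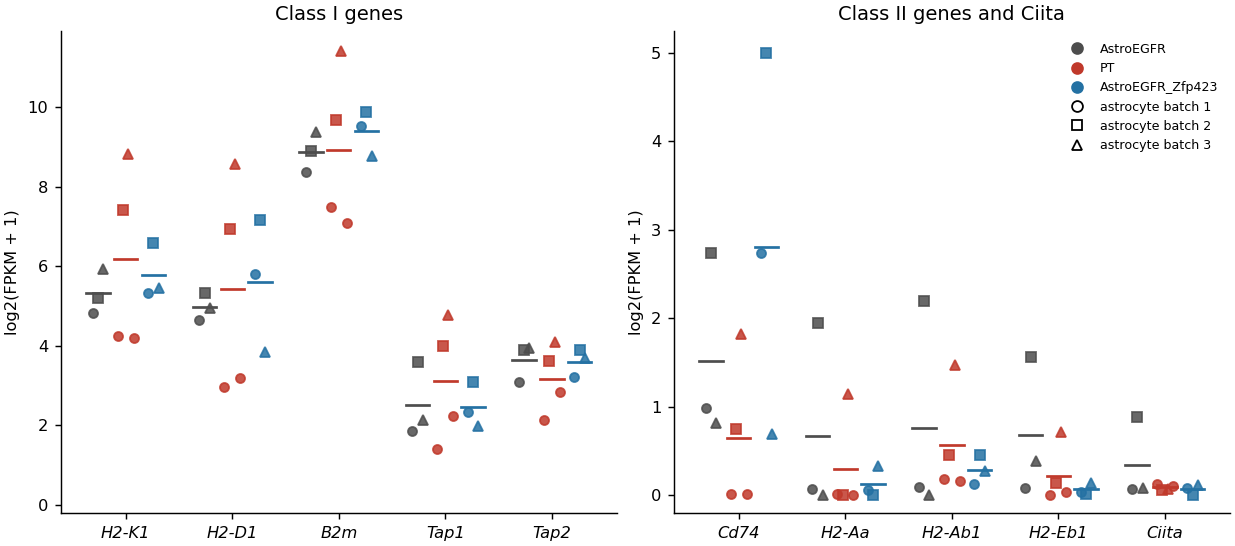
Levels of the 10 genes as log2(FPKM + 1) in each library (points), by group (colour) and astrocyte batch (shape), with group means as horizontal bars. PT2 (red square) and PT3 (red triangle) lie above and PT1 and PT4 (red circles) below the 3 AstroEGFR libraries for *H2-K1*, *H2-D1* and *B2m*. *H2-Aa*, *H2-Ab1*, *H2-Eb1* and *Ciita* are near 0 in most libraries, and *Cd74* in PT1 and PT4.

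The comparison of PT with AstroEGFR asked which genes differ after tumour formation. With limma on log2(FPKM + 1), 6 of the 10 genes had a mean of at least 1 FPKM and were tested. The 4 under that level were *H2-Aa*, *H2-Ab1*, *H2-Eb1* and *Ciita*. Of all 12261 features tested, 1.24% were called at an adjusted p below 0.05 (152 features, 39 higher and 113 lower), and 0 of the 6 genes were. Adjusted p-values of the 6 genes ran from 0.637 to 0.994, and 0 of them had an unadjusted p below 0.05, against 1664 features in all. The log2 difference was 0.85 (SE 1.14) for *H2-K1*, 0.44 (SE 1.34) for *H2-D1* and 0.03 (SE 1.01) for *B2m*. It was 0.58 (SE 0.85) for *Tap1*, -0.48 (SE 0.49) for *Tap2* and -0.86 (SE 0.66) for *Cd74*. The median difference was 0.24 over the 6 genes and 0.03 over all features tested. Each SE but that of *Cd74* exceeded the size of its difference, so a change of either sign was within the error.

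The PT and AstroEGFR values overlapped for each of the 10 genes. The groups did not overlap for 14.8% of the features tested, a share at which few or none of 10 genes would part. That share covers only features past the level filter, which 4 of the 10 genes did not pass. Exact two-sided permutation tests of the 10 genes gave p from 0.286 to 1, where 3 libraries against 4 can give no p below 0.0286. With the astrocyte batch as a replicate block, 475 features were called in place of 152. Still 0 of the 6 genes were among them, with *H2-K1* at 1.29 (limma adjusted p = 0.296) and *Tap1* at 0.90 (limma adjusted p = 0.351). The block moved *H2-D1* to 0.94, *B2m* to 0.41 and *Tap2* to -0.29. With PT1 and PT4 averaged to 1 library, *H2-K1* became 1.4999, *H2-D1* 1.22, *B2m* 0.57, *Tap1* 1.007 and *Tap2* -0.25, with 0 of the 6 genes called. Without PT3 the differences of *H2-K1*, *H2-D1* and *B2m* became -0.03, -0.61 and -0.80, so that their sign rested on that library. Without PT2, *H2-D1* became -0.06 and *B2m* -0.22, and without AstroEGFR_1 *B2m* became -0.22. With 1 library left out, *Tap1* ran from 0.028 (without PT3) to 1.14 (without PT1) and *Tap2* from -0.79 (without PT3) to -0.13 (without PT1).

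Within astrocyte batches the PT libraries went opposite ways. The values that follow are log2 differences of a PT library from the AstroEGFR library of its batch, 1 library against 1, and carry no test. The median difference over all features compared was 0.01 to 0.06 in these 4 pairs. PT1 and PT4 were the most alike of all pairs of libraries (r = 0.956 across features). In batch 1 the mean difference of the 5 class I genes was -0.91 in PT1 and -0.65 in PT4. *H2-D1* was lower by at least 1 in both, at -1.67 and -1.45, and *B2m* also in PT4, at -1.28. This made 1 of 5 class I genes lower by at least 1 in PT1, against 10.6% of all features compared, and 2 of 5 in PT4, against 10.7%. In these and the other pairs, the direction counted was that of the pair's own class I mean. Part of any excess over the share was therefore given by that choice.

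In batch 2 the mean difference was 0.94 in PT2. *H2-K1* differed by 2.21 and *H2-D1* by 1.60, which made 2 of 5 genes higher by at least 1, against 13.9% of all features. *Tap2* went slightly the other way, at -0.27. In batch 3 the mean difference was 2.26 in PT3. *H2-D1* differed by 3.62, *H2-K1* by 2.90, *Tap1* by 2.64 and *B2m* by 2.03, which made 4 of 5 higher by at least 1, against 8.94% of all features. *Tap2* differed by 0.15 in PT3, so the transporter genes parted there.

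**Figure D2:**
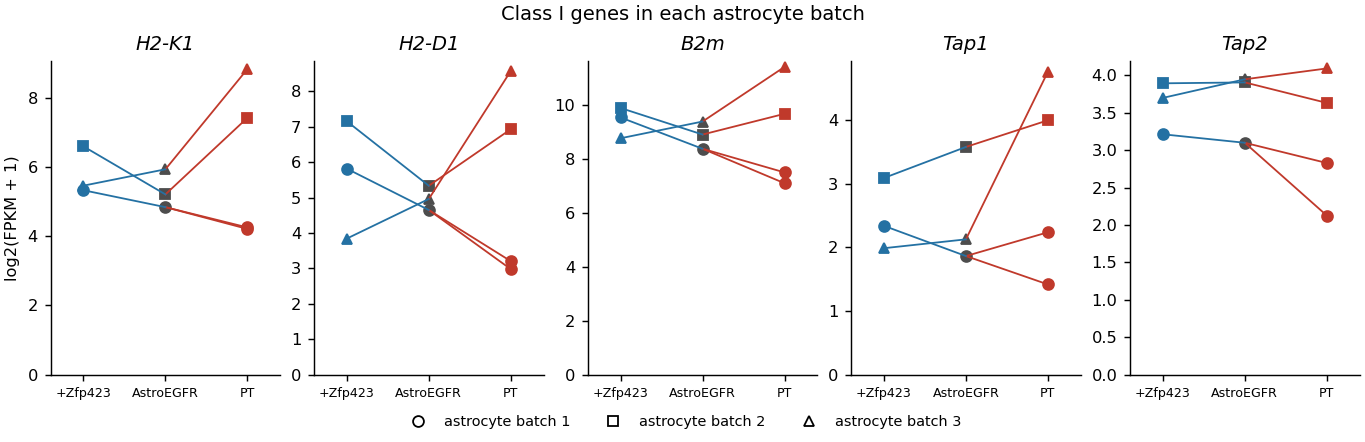
The 5 class I genes as log2(FPKM + 1), 1 panel a gene, with lines joining each AstroEGFR library (centre) to the PT (right) and AstroEGFR_Zfp423 (left) libraries of the same astrocyte batch. For *H2-K1*, *H2-D1* and *B2m* the lines to PT2 and PT3 go up and those to PT1 and PT4 go down.

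Small non-coding RNA and histone features made up 0.844% of the FPKM in AstroEGFR_1, 0.801% in PT1 and 1.10% in PT4, the 3 libraries with the lowest class I mean. They made up 4.88% in AstroEGFR_3 and 6.12% in PT3, and 29.7% in AstroEGFR_2 and 34.4% in PT2. AstroEGFR and PT of 1 batch were therefore alike in this share, and its part in the class I levels was not tested. *Xist*, a transcript of female cells, was at 20.4 to 34.9 FPKM in the 3 libraries of batch 2. It was at most 0.0403 FPKM in the other 7, 0.00882 or less in PT1, PT3 and PT4. The hosts were female, and the part of host-cell RNA in the PT values was not tested.

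The comparison of AstroEGFR_Zfp423 with AstroEGFR asked what the added *Zfp423* changes. With limma and the astrocyte batch as a block, 0 of 12366 features (0%) were called, and 913 had an unadjusted p below 0.05. The same 6 genes were tested, 0 were called, and their limma adjusted p-values ran from 0.641 to 0.977. The log2 difference was 0.47 (SE 0.42) for *H2-K1*, 0.62 (SE 0.65) for *H2-D1* and 0.51 (SE 0.53) for *B2m*. It was -0.05 for both *Tap1* (SE 0.33) and *Tap2* (SE 0.23). Without either library of batch 2 the first 3 became 0.0079, 0.024 and 0.27, and without either of batch 3 they became 0.94, 1.49 and 1.07. Without either of batch 1, *H2-D1* became 0.35 and *B2m* 0.18. The median over the 6 genes was 0.49, and 0.02 over all features tested. None of the 10 genes had groups that did not overlap, against 11.5% of the features tested, a share at which few or none of 10 would part. An exact permutation test of 3 against 3 can give no p below 0.1.

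In this comparison the class I mean of batch 3 went the other way from that of batches 1 and 2, which was not tested. The mean class I difference from the AstroEGFR library of the batch was 0.68 in AstroEGFR_1_Zfp423, 0.74 in AstroEGFR_2_Zfp423 and -0.52 in AstroEGFR_3_Zfp423. Markers of other cell types moved with it. The 15 microglia and macrophage markers found summed to 2301, 1525 and 2.80 FPKM in these 3 libraries, against 29.96, 9.98 and 42.8 FPKM in AstroEGFR_1 to AstroEGFR_3. The 6 markers of fibroblasts and meninges summed to 4522, 6273 and 228 FPKM, against 312, 510 and 5138 FPKM. Both sums were thus higher in batches 1 and 2, as the class I mean was. In batch 3 the fibroblast sum was lower, and so was the microglia sum, mostly by *Tmem119* alone (37.97 against 0.0513 FPKM). The part of these cell types in the class I values was not tested. In batch 1 *H2-D1* (1.17) and *B2m* (1.16) were higher by at least 1, 2 of 5 genes against 11.7% of all features. In batch 2 *H2-K1* (1.39) and *H2-D1* (1.82) were, 2 of 5 against 13% of all features. In batch 3 *H2-D1* was lower by at least 1 (-1.12), 1 of 5 against 17.2% of all features. Here too the direction counted was that of each batch's own class I mean, so any excess over the share was partly given by it. *Tap1* and *Tap2* stayed within 0.49 of AstroEGFR in each batch.

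**Figure D3:**
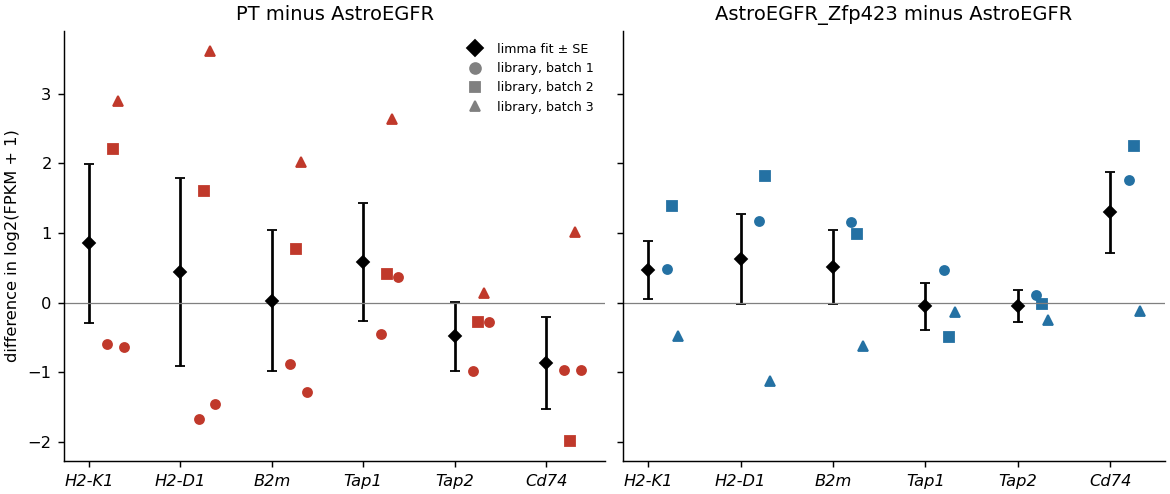
Differences from AstroEGFR in log2(FPKM + 1) for the 6 genes tested, in PT (left) and AstroEGFR_Zfp423 (right), with the limma estimate and its SE as black diamonds and the single libraries minus the AstroEGFR library of their batch as coloured points. Single PT libraries lie on both sides of 0 for *H2-K1*, *H2-D1* and *B2m*, with *H2-D1* between -1.67 and 3.62.

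Class II chain genes were low in most libraries, and *Cd74* was highest where they were in AstroEGFR (AstroEGFR_2) and in PT (PT3), but not in AstroEGFR_1_Zfp423 and AstroEGFR_2_Zfp423. *Cd74*, the invariant chain, was listed at 0.981, 5.68 and 0.756 FPKM in AstroEGFR. PT1 to PT4 had 0.0104, 0.684, 2.54 and 0.0106 FPKM. With *Zfp423* it was listed at 5.69, 30.9 and 0.615 FPKM. The highest value of all 10 libraries was that of AstroEGFR_2_Zfp423, and PT1 and PT4 were near 0. In PT the log2 difference was -0.86 (SE 0.66, limma adjusted p = 0.637), and -2.13 with a pseudocount of 0.1 in place of 1. *Cd74* passed the level filter there through AstroEGFR_2 and fell below it without that library, so its negative sign carries no weight. With *Zfp423* it was 1.296 (SE 0.58, limma adjusted p = 0.641), with differences of 1.76 in batch 1, 2.25 in batch 2 and -0.12 in batch 3. It became 0.82 without either library of batch 2 and 2.005 without either of batch 3.

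*H2-Aa*, the alpha chain, was listed at 0.0482, 2.85 and 0 FPKM in AstroEGFR. Values in PT1 to PT4 were 0.0121, 0, 1.22 and 0 FPKM. With *Zfp423* it was listed at 0.0410, 0 and 0.262 FPKM. Only AstroEGFR_2 and PT3 exceeded 1 FPKM. *H2-Ab1*, its beta chain, was at 0.0636, 3.57 and 0 FPKM in AstroEGFR. PT1 to PT4 had 0.139, 0.373, 1.77 and 0.121 FPKM. With *Zfp423* it was at 0.0901, 0.366 and 0.211 FPKM, so the same 2 libraries held the highest values of both chains.

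*H2-Eb1*, the beta chain of the E molecule, was at 0.0581, 1.96 and 0.312 FPKM in AstroEGFR. PT1 to PT4 had 0, 0.105, 0.635 and 0.0225 FPKM. With *Zfp423* it was at most 0.105 FPKM. *H2-Ea-ps*, the E alpha pseudogene of this strain, was listed at 0 in all 10 libraries. *Ciita*, the transactivator of class II genes, was at 0.0490, 0.847 and 0.0620 FPKM in AstroEGFR, at most 0.0951 FPKM in PT and at most 0.0794 FPKM with *Zfp423*. AstroEGFR_2 thus had the highest *H2-Aa*, *H2-Ab1*, *H2-Eb1* and *Ciita* of the 10 libraries. Fitted without the level filter, these 4 genes had limma adjusted p-values of 0.673 to 0.932 in PT and 0.743 to 0.825 with *Zfp423*.

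Within batch 2 the class II chains were low again in both derived libraries. The sum of *H2-Aa*, *H2-Ab1* and *H2-Eb1* was 8.39 FPKM in AstroEGFR_2, 0.477 in PT2 and 0.378 in AstroEGFR_2_Zfp423. It was 3.62 FPKM in PT3 and 0.143 to 0.578 FPKM in the 6 remaining libraries. Class II chain levels so stood out in 1 AstroEGFR and 1 PT library, of different batches, and with 1 library a culture they have no further replicate.

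The 2 libraries with the highest *Cd74* were those with high markers of microglia and macrophages, closely followed by AstroEGFR_2, where these markers were low. As given above, the markers summed to 2301 FPKM in AstroEGFR_1_Zfp423 and 1525 FPKM in AstroEGFR_2_Zfp423, with 15 of 15 at 1 FPKM or more in both. Among them the complement gene *C1qa* was at 433 and 290 FPKM and *Csf1r*, the receptor that microglia depend on, at 202 and 108 FPKM. The sum was 2.80 FPKM in AstroEGFR_3_Zfp423, 9.98 to 42.8 FPKM in AstroEGFR and 4.43 to 40.5 FPKM in PT. The upper ends were mostly 1 gene each, *Tmem119* in AstroEGFR_3 (37.97 FPKM) and *Cd68* in PT2 (36.5 FPKM). *Ctss*, the protease that trims the invariant chain in antigen-presenting cells, was at 412 and 101 FPKM in AstroEGFR_1_Zfp423 and AstroEGFR_2_Zfp423 and at most 1.10 FPKM elsewhere. Their part in the *Cd74* levels was not tested, and in a culture more cells of a type cannot be told apart from more RNA per cell.

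The class II chains did not go with these markers. *H2-Aa*, *H2-Ab1* and *H2-Eb1* summed to 0.156 FPKM in AstroEGFR_1_Zfp423 and 0.378 FPKM in AstroEGFR_2_Zfp423. In AstroEGFR_2 and PT3, where the chains were highest, the microglia markers summed to 9.98 and 8.53 FPKM, and 2 of 15 were at 1 FPKM or more in each. B cell markers (5 genes) summed to at most 0.234 FPKM in any library, with 0 genes at 1 FPKM. Dendritic cell markers (5 genes) summed to 0.418 FPKM in AstroEGFR_2 and 1.02 FPKM in PT3, and to at most 13.0 FPKM in any library.

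**Figure D4:**
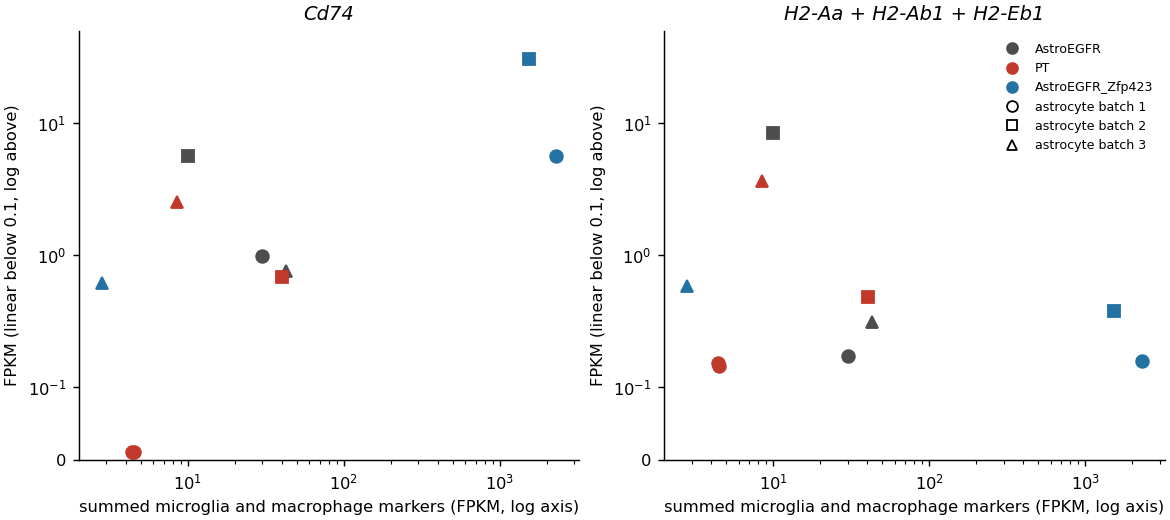
*Cd74* (left) and the sum of *H2-Aa*, *H2-Ab1* and *H2-Eb1* (right) in FPKM against the summed FPKM of 15 microglia and macrophage markers (log axis), 1 point a library. The 2 libraries with marker sums of 1525 and 2301 FPKM have *Cd74* at 30.9 and 5.69 FPKM but class II chains below 0.4 FPKM, and the highest class II chains (8.39 and 3.62 FPKM) stand at marker sums below 10 FPKM.

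Across the 10 libraries the class I genes went together, and so did the class II chains with *Ciita*, with some overlap between the sets. Pearson's r of log2(FPKM + 1) ran from 0.673 to 0.941 over the 10 pairs of class I genes (median 0.819). It ran from 0.780 to 0.968 over the 6 pairs of *H2-Aa*, *H2-Ab1*, *H2-Eb1* and *Ciita*, where AstroEGFR_2 is far from the rest. Between these sets it ran from -0.22 to 0.705, the latter for *Tap1* with *H2-Ab1*, above the 0.673 of *Tap1* with *Tap2*. *Cd74* had r from 0.160 to 0.347 with the latter 4 genes and from 0.323 to 0.604 with class I. These values are descriptions, since libraries of 1 batch are related and all share the scaling of the matrix.

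The features with a pattern most like the mean of the 5 class I genes, among 12470 with a mean of at least 1 FPKM, were *Zcchc7* (r = 0.965), *Bst2* (0.965), *Sec23ip* (0.948), *Creb3* (0.935) and *Dhx58* (0.933). *Bst2* encodes tetherin, which holds budding viruses at the cell surface, and was listed at 11.3, 72.5, 221 and 10.8 FPKM in PT1 to PT4. *Dhx58* encodes an RNA sensor of the RIG-I family and was at 0.450, 1.52, 5.15 and 0.251 FPKM there. Both were chosen for their likeness over these same libraries, so that this division of PT is no separate result. For the mean of the 4 class II genes they were *Irf7* (r = 0.912), *Gbp2* (0.887), *Gm12250* (0.874), *Cbx3* (0.868) and *Lbr* (0.861). *Gbp2*, a guanylate-binding protein that interferons induce, was at 133 FPKM in AstroEGFR_2 and 45.5 FPKM in PT3, and at 0.690 to 29.97 FPKM in the other 8. It too was chosen for its likeness over these libraries, so its high values there are no separate result.

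In the wider pathway no gene was called in either comparison, where 1.24% of all features were called in PT and 0% with *Zfp423*, so that lists of this size would hold few or none. Of the 11 genes of class I peptide loading and the immunoproteasome, 11 were tested in PT and 0 called, with 3 higher and 8 lower. *Psmb10*, an immunoproteasome subunit, had the highest estimate, 0.39 (SE 0.48), and *Tapbp*, which bridges TAP and the heavy chain, the lowest, -0.89 (SE 0.39, limma adjusted p = 0.373). *Psmb9*, another immunoproteasome subunit, stood at 0.781, 4.12, 23.2 and 1.16 FPKM in PT1 to PT4. It so kept the order of *Tap1*'s extremes, with PT1 lowest and PT3 highest.

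Of 16 other class I heavy chain genes, 11 were tested in PT and 0 called. Of these, *H2-Q1* and *H2-Q6* passed the level filter only through PT3 (11.5 and 5.72 FPKM), so their direction was given by the filter. *H2-Q4* had the highest estimate, 0.99 (SE 1.19), with 4.202, 26.3, 140 and 3.42 FPKM in PT1 to PT4. *H2-T23*, the heavy chain of Qa-1, had the lowest, -1.82 (SE 0.90, limma adjusted p = 0.437). It was at 10.8, 15.6 and 37.3 FPKM in AstroEGFR. PT1 to PT4 had 2.27, 2.44, 31.3 and 1.62 FPKM, so that PT2 was low for this gene where it was high for *H2-K1* and *H2-D1*. Reads of these paralogs may also be shared in part.

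Of 11 further class II and class II loading genes, 4 were tested in PT and 0 called, all 4 with an estimate below 0, from *Ctsl* (-0.20) to *Ifi30* (-1.11, SE 1.02). With *Zfp423* 6 were tested and 0 called, with 6 estimates above 0, of which *Ctss* passed the level filter only through the 2 libraries with high microglia markers. *Ctsl*, an endosomal protease, was at 251 FPKM against 171 in AstroEGFR in batch 1 and 478 against 81.5 in batch 2. In batch 3 its values were close, at 195 against 193 FPKM. *Ifi30*, a thiol reductase of the endosome, was at 35.2 FPKM against 5.14 in AstroEGFR in batch 1 and 53.4 against 2.51 in batch 2. In batch 3 it went the other way, at 1.09 FPKM in AstroEGFR_3_Zfp423 against 44.3 FPKM in AstroEGFR_3. The estimate of *Ctss* was 4.45 (SE 1.65, limma adjusted p = 0.628), with its sign given by the filter.

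Of 24 regulators, 22 were tested in PT and 0 called, with 15 higher and 7 lower. *Rfxank*, a subunit of the RFX complex that binds the X box, was at 0.70 (SE 0.27). *Socs1*, which restrains interferon signalling, was at -1.28 (SE 0.32, limma adjusted p = 0.129), with 6.25, 6.31 and 4.21 FPKM in AstroEGFR and 0.909 to 2.49 FPKM in PT. The groups did not overlap for *Socs1* or for *Rfxank* (4.66 to 6.97 FPKM in AstroEGFR and 8.01 to 14.1 in PT), as for 14.8% of all features tested, and neither adjusted p passed the threshold. *Nlrc5*, the class I transactivator, was at 0.0227, 2.37 and 0.0449 FPKM in AstroEGFR. PT1 to PT4 had 0.127, 2.999, 2.94 and 0.113 FPKM. PT2 and PT3, the PT libraries with high class I, thus also had the higher *Nlrc5*. Among AstroEGFR the 2 did not go together. AstroEGFR_3 had little *Nlrc5* but a mean class I log2(FPKM + 1) of 5.27, close to the 5.39 of AstroEGFR_2. With *Zfp423*, *Nlrc5* was at 0.580, 0.621 and 0.415 FPKM, so AstroEGFR_2_Zfp423 had less *Nlrc5* than AstroEGFR_2 but a higher class I mean. *Ifng* was listed at 0 in all 10 libraries.

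Of 5 costimulatory genes, 3 were tested in PT and 0 called. *Cd40* was at 27.1 FPKM in PT2, against 0.0849 to 1.26 FPKM in the other PT libraries, and passed the level filter only through PT2, so its estimate of 1.34 (SE 1.11) had to be above 0. *Cd80* was at 0.514 to 35.0 FPKM in AstroEGFR and at most 0.156 FPKM in PT, and passed only through AstroEGFR, so its estimate of -2.64 (SE 0.94) had to be below 0. With *Zfp423*, 0 genes of any of these 5 lists were called. Of the markers of other cell types, 1 gene was called in PT, *Pdgfrb*, at -4.14 (SE 0.57, limma adjusted p = 0.0200), one of 6 markers of fibroblasts and meninges. Those 6 markers summed to 312 to 5138 FPKM in AstroEGFR and 1.08 to 372 FPKM in PT, and PT2 and PT3, both high in class I, had the lowest and the highest sum of the PT group.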

How the data were processed

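RNA of 10 mouse cultures was sequenced, 1 library each. The authors deposited 1 matrix of FPKM values by gene symbol. The submitters' processing notes name TopHat 1.3, Cuffnorm and mm9. Labels and methods differ on the kit (TruSeq RNA against ribosomal RNA removal with stranded libraries) and on the *Zfp423* vector (lentiviral against retroviral). FPKM hold no counts, so depth and counting error are unknown.

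Groups were compared on log2(FPKM + 1) with limma 3.58.1 (R 4.3.3), using linear models and trended empirical Bayes, over features averaging 1 FPKM or more in the libraries compared. This scale understates changes of low genes. P-values were adjusted by Benjamini-Hochberg over all features tested (threshold 0.05). AstroEGFR_Zfp423 was fitted with the astrocyte batch as a block, PT without. In PT, same-batch libraries deviated together from their group means (r = 0.346 to 0.499, batches from the study), so the blocked fit is given beside the unblocked one. With *Zfp423*, r was 0.241, -0.111 and -0.262 in batches 1 to 3. P-values measure the spread between these cultures. The fits were tested on simulated data. Exact permutation tests were two-sided.

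The genes, lists and tests were chosen with earlier results of these data known. All 10 genes are named. From the 5 pathway lists, the highest and lowest estimates in PT are named, with any list gene called, and for likeness the 5 features with the highest Pearson's r. *Nlrc5*, *Psmb9*, *H2-Q1*, *H2-Q6*, *Tmem119*, *Cd68*, *Ctss*, *C1qa*, *Csf1r*, *Ifng* and *H2-Ea-ps* were named after their values were seen. Of 16 microglia markers, 15 were found. Promoters are from RefSeq (GRCm38.p6), matched by symbol. None was given for *Tap2*, *H2-Ab1* or *Ciita*, and that of *Cd74* was left out. Python 3.11.15 with pandas 2.3.3, numpy 2.4.6, scipy 1.17.1 and matplotlib 3.10.9 was used.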

Additional observations from a re-analysis of the deposited data

Results flagged for a closer look

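*H2-Aa* was listed at 1.22 FPKM in PT3 and at 0 to 0.0121 FPKM in the other PT libraries. On the log2(FPKM + 1) scale its gap of 0.985 of the group's range exceeded Dixon's critical value for 4 samples. For normally distributed values chance alone passes that value in about 1 of 20 groups. The other PT values are at or near 0, so this rate need not hold here.

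The PT-minus-AstroEGFR difference was below 0 in both PT libraries of astrocyte batch 1 and above 0 in PT2 and PT3 for *H2-K1*, *H2-D1* and *B2m*, and above 0 in PT3 but not in PT2 for *Tap2* and *Cd74*. These differences between batches were not tested. On the log2(FPKM + 1) scale, batch 2 exceeded batch 1 by 2.82 for *H2-K1*, 3.15 for *H2-D1* and 1.85 for *B2m*. Batch 3 exceeded batch 1 by 3.50 for *H2-K1*, 5.17 for *H2-D1*, 3.10 for *B2m*, 0.77 for *Tap2* and 1.98 for *Cd74*. Batches 2 and 3 hold 1 PT library each.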

How the results depend on the processing

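Of the 6 genes tested, 0 passed the threshold under any of the alternatives in either comparison: a pseudocount of 0.1, no level filter, median-ratio scaling, rescaling without small non-coding RNA and histone features, no trend, all 10 libraries in 1 fit, another use of the block, and each library left out. The PT comparison called 152 features, 82 with all 10 libraries in 1 fit, 475 with the replicate block, 61 with PT1 and PT4 averaged, and 7 to 123 with 1 library left out (7 without AstroEGFR_1, 54 without AstroEGFR_3, 97 without PT1, 70 without PT2, 58 without PT4). The *Zfp423* comparison called 0 features, 2 with no replicate block, and 0 to 60 with 1 library left out (47 without AstroEGFR_2, 60 without AstroEGFR_2_Zfp423). The log2 difference changed sign in PT for *H2-K1* (-0.032 without PT3), *H2-D1* (-0.06 without PT2, -0.61 without PT3) and *B2m* (-0.22 without AstroEGFR_1, -0.22 without PT2, -0.80 without PT3). With *Zfp423* it changed sign for *Tap1* (0.17 without either library of batch 2) and *Tap2* (0.05 without either library of batch 3). Over the fits with 1 library left out the difference ran from -0.032 to 1.507 for *H2-K1*, -0.61 to 1.256 for *H2-D1*, -0.80 to 0.639 for *B2m*, 0.028 to 1.14 for *Tap1*, -0.79 to -0.13 for *Tap2* and -1.25 to -0.65 for *Cd74* in PT, and from -0.314 to 0.168 for *Tap1* and -0.130 to 0.0507 for *Tap2* with *Zfp423*. The cause was not tested. *Cd74* in PT was at -2.13 with the pseudocount of 0.1, and without AstroEGFR_2 it fell below the level filter. No scaling moved the median of all features by over 0.1.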
